A study of Mus musculus with 6 samples.

Results

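The 10 genes described here code for proteins that make or sense prostaglandins and leukotrienes. They were chosen as a list of gene symbols covering the release of arachidonic acid (Pla2g4a), prostaglandin synthesis (Ptgs1, Ptgs2, Ptges), prostaglandin reception (Ptger2, Ptger4, Ptgir) and leukotriene synthesis (Alox5, Alox5ap, Ltc4s). Each symbol matched 1 of the 54532 genes listed, and all 10 were among the 12755 genes that reached the minimum level for testing. The levels come from RNA-seq of BMDMs, macrophages grown from C57BL/6 mouse bone marrow in medium conditioned by L929 cells, in 3 groups of 2 libraries (replicates A and B). Untreated cells (Untr) received neither agent. LPS, a bacterial outer membrane component sensed by TLR4, was given at 100 ng/ml for the final 2 h (LPS), and the last group had first been kept for 6 h in 5 mM metformin, a diabetes drug known to inhibit mitochondrial complex I (Met + LPS). No group received metformin without LPS, so its action on resting cells was not measured. The cells had been seeded in duplicate, and nothing states that A and B came from separate mice, so the p-values measure the spread between these libraries, which may be technical.

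Eicosanoids are lipid mediators made on demand from arachidonic acid, a fatty acid that phospholipase A2 enzymes cut from membrane phospholipids. The cyclooxygenases COX-1 (Ptgs1) and COX-2 (Ptgs2) turn it into prostaglandin H2, from which terminal synthases make prostaglandin E2, prostacyclin, prostaglandin D2 or thromboxane. In the other branch, 5-lipoxygenase (Alox5) works with its membrane helper FLAP (Alox5ap) to make leukotriene A4, and leukotriene C4 synthase (Ltc4s) joins glutathione to it. Macrophages are a known source of both classes, and COX-2 and the inducible prostaglandin E synthase are textbook genes of the LPS response.

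Levels are given in TPM, read counts corrected for gene length and divided by the library's total, which allows comparison between genes within a library. Between libraries, TPM compares shares of a total, and comparisons with untreated cells depended on the scaling, as described below. Changes are log2 fold changes on the scale of TPM + 1, so that changes of weakly expressed genes are understated. A gene is said to have risen or fallen where its adjusted p-value (limma, Benjamini-Hochberg over all 12755 tested genes) was under 0.01. After LPS, 5 of the 10 genes rose and 3 fell, while 16.2% of all tested genes rose and 60.1% fell. Between Met + LPS and LPS, 2 of the 10 rose and 5 fell, beside 14.5% and 18.0% of all tested genes. Relative to untreated cells, 6 rose and 4 fell under Met + LPS, beside 16.3% and 58.8% of all tested genes. Each of the 3 comparisons shares libraries with the others.

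Directions relative to untreated cells depended on the scaling of the libraries. The median log2 fold change of all tested genes was -0.48 in both comparisons with untreated cells and -0.03 in Met + LPS vs. LPS. Once each library was rescaled by its median ratio to the others, they became 0.01 (LPS vs. untreated), 0.03 (Met + LPS vs. untreated) and -0.02, and 31.6% of the genes tested then rose after LPS and 27.2% fell. Under that rescaling 6 of the 10 eicosanoid genes rose after LPS and 1 fell, 6 rose and 2 fell in Met + LPS vs. untreated (34.4% and 29.2% of all genes tested), and again 2 rose and 5 fell in Met + LPS vs. LPS (16.2% and 17.8%). For the 10 genes, values under the rescaling are given below wherever a direction or a call changed.

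A stricter rule adds a minimum change, a log2 fold change of 2 in either direction where untreated cells are the reference, or of 0.7 where LPS is. By that rule 2 of the 10 genes, Ptgs2 and Ptges, were called in LPS vs. untreated, where 6.08% of all tested genes were. Ptges and Alox5 passed it in Met + LPS vs. LPS, beside 8.28% of all tested genes. Ptgs2 and Ptges passed it in Met + LPS vs. untreated, beside 5.35%. The median change of the 10 genes was 0.34 after LPS and 0.51 after Met + LPS, both relative to untreated cells, and -0.20 in Met + LPS vs. LPS.

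**Figure D1:**
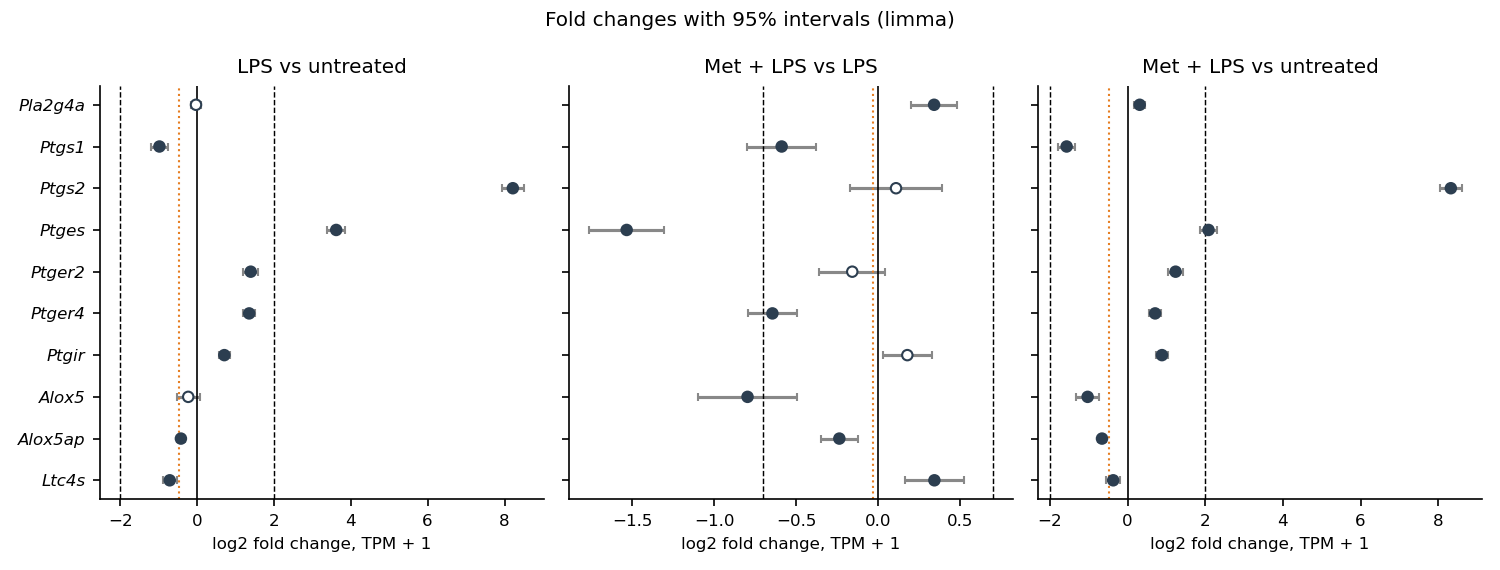
Log2 fold changes (TPM + 1) of the 10 eicosanoid genes with 95% intervals from limma in the 3 comparisons, with filled points for an adjusted p-value under 0.01, dashed lines at the minimum change of the stricter rule and a dotted line at the median of all tested genes. Ptgs2 lies at 8.22 and 8.33 in the comparisons with untreated cells and at 0.11 in Met + LPS vs. LPS, where Ptges is lowest at -1.53.

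Cytosolic phospholipase A2 (Pla2g4a, ENSMUSG00000056220, chr1:149829618-149961290 on the minus strand of GRCm38) is the calcium-activated enzyme that frees arachidonic acid, the substrate of both branches. Its level was 9.10 and 9.37 TPM in untreated cells, 9.25 and 8.81 TPM after LPS, and 11.7 TPM in each Met + LPS library. The untreated and LPS libraries overlapped, and both Met + LPS libraries stood above the other four. LPS changed the level by a log2 fold change of -0.03 (95% interval -0.17 to 0.11, adjusted p = 0.66), which became 0.45 (adjusted p = 0.00043) after median-ratio rescaling. Met + LPS exceeded LPS by 0.34 (SE 0.06, adjusted p = 0.0036), a ratio of 1.30 between the group means. This call was lost when any 1 of the 6 libraries was left out, with adjusted p-values of 0.0124 to 0.0224, while the change stayed between 0.31 and 0.37. Against untreated cells the increase under Met + LPS was 0.31 (adjusted p = 0.0022), and this call was lost without any 1 of the untreated or Met + LPS libraries (highest adjusted p = 0.0207).

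COX-1 (Ptgs1, ENSMUSG00000047250, chr2:36230426-36252272, plus strand) is the cyclooxygenase usually described as constitutive. Both untreated libraries had 14.0 TPM, the LPS libraries 7.04 and 6.21 TPM, and the Met + LPS libraries 4.36 and 3.78 TPM. The 3 groups did not overlap, and the level was lower at each step from untreated to LPS to Met + LPS. Ptgs1 fell by 0.98 on the log2 scale after LPS (SE 0.09, adjusted p = 5.6e-05), and by 0.49 after median-ratio rescaling (adjusted p = 0.0021). Met + LPS lay lower than LPS again, at -0.59 (SE 0.09, adjusted p = 0.002), and its mean was 0.290 times the untreated mean (log2 fold change -1.57, adjusted p = 6.3e-06). The step from LPS to Met + LPS was lost without untreated A, untreated B, LPS A or Met + LPS B, with adjusted p-values up to 0.0135.

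COX-2 (Ptgs2, ENSMUSG00000032487, chr1:150100031-150108227, plus strand) is the inducible cyclooxygenase, and it had the highest level of the 10 genes after LPS. It stood at 0.603 and 1.10 TPM in untreated libraries, 546 and 542 TPM after LPS, and 612 and 563 TPM under Met + LPS. Untreated cells were far below both stimulated groups, and both Met + LPS libraries were above both LPS libraries. The untreated values rested on 21 and 36 reads (recovered from the TPM values), with exact 95% Poisson intervals of 13.0 to 32.1 and 25.2 to 49.8 reads, and the stimulated ones on 18119 to 22831 reads. Ptgs2 rose by 8.22 after LPS (SE 0.12, adjusted p = 1.6e-08), a ratio of group means of 640. Met + LPS differed from LPS by 0.11 (95% interval -0.17 to 0.39, adjusted p = 0.48). In this fit a change of either sign within that interval could not be told from none. The fit gives all comparisons of a gene the same SE, which here included the wide spread of the untreated pair. Fitting the compared groups only gave the same change with an adjusted p-value of 0.142. Tests on the recovered reads (limma voom) gave 0.11 (adjusted p = 0.0286), and 0.13 with median-ratio library sizes (adjusted p = 0.015). None of these passed the threshold of 0.01.

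**Figure D2:**
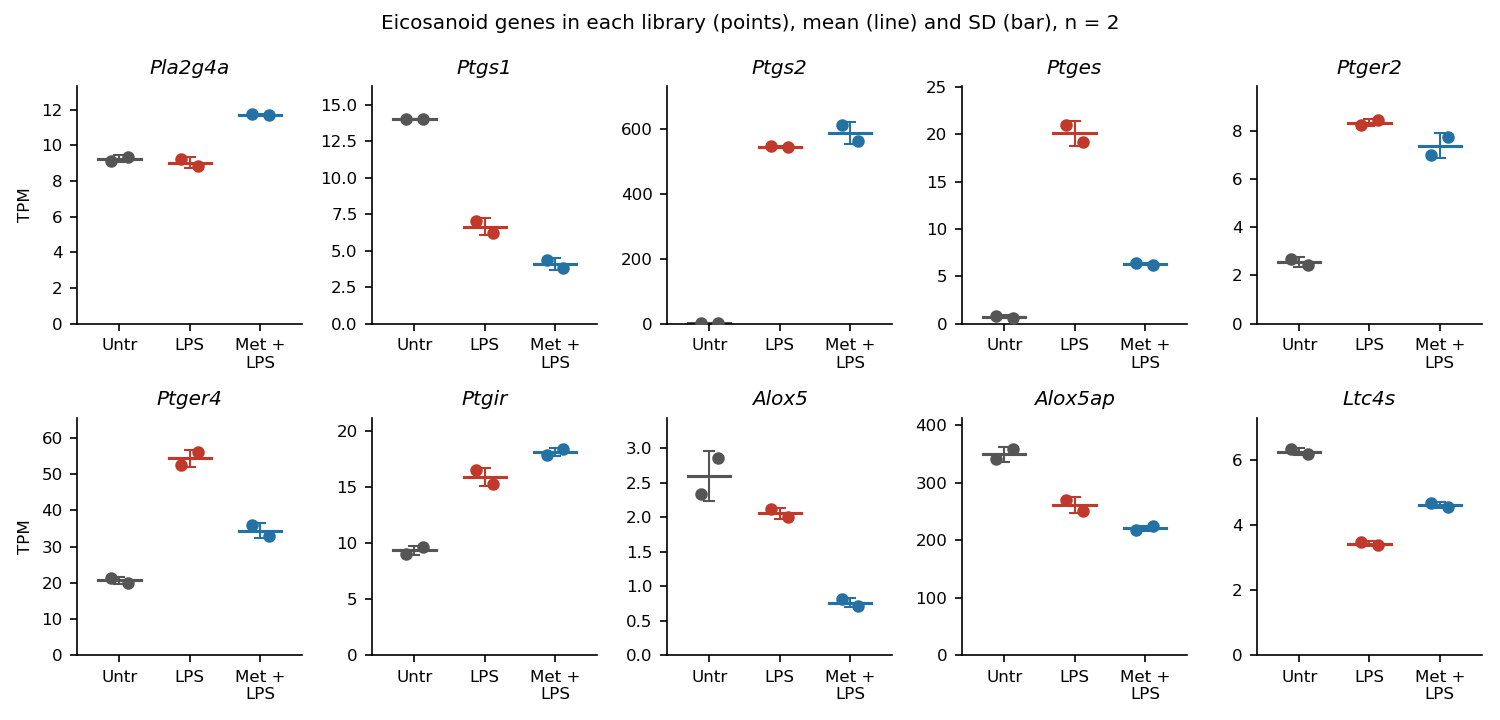
TPM of the 10 eicosanoid genes (1 panel each, axes from 0) in the 6 libraries, with points for libraries, lines for group means and bars for the SD (n = 2). Ptgs2 is near 0 in untreated cells and between 542 and 612 TPM in the stimulated libraries, Ptges is highest after LPS and intermediate under Met + LPS, and Alox5 is lowest under Met + LPS.

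The makeup of the cyclooxygenase transcripts changed with the induction. Ptgs2 made up 4.12% and 7.26% of the summed Ptgs1 and Ptgs2 TPM in the untreated libraries, 98.7% and 98.9% after LPS, and 99.3% in both Met + LPS libraries. The sum of both genes was 14.6 and 15.1 TPM in untreated cells, 553 and 548 TPM after LPS, and 616 and 567 TPM under Met + LPS. The untreated cells thus held mainly Ptgs1 transcripts and the stimulated cells almost wholly Ptgs2 transcripts. These ratios are descriptions, since an exact permutation test of 2 libraries against 2 cannot give a p-value below 0.333.

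Microsomal prostaglandin E synthase-1 (Ptges, ENSMUSG00000050737, chr2:30889471-30929863, minus strand) is the inducible enzyme that turns the product of COX-2 into prostaglandin E2. Its libraries read 0.836 and 0.604 TPM in untreated cells, 21.0 and 19.2 TPM after LPS, and 6.36 and 6.21 TPM under Met + LPS. All 3 groups were apart, with Met + LPS between the other two. Ptges rose by 3.62 after LPS (SE 0.09, adjusted p = 2.2e-07), a ratio of means of 27.9. It fell by 1.53 from LPS to Met + LPS (SE 0.09, adjusted p = 5.7e-05), to 0.312 times the LPS mean, and this call held with each library left out (log2 fold change -1.60 to -1.47, adjusted p = 0.000787 to 0.00128). Met + LPS was still above untreated, at 2.09 (adjusted p = 2.6e-06) with a ratio of 8.73. Without untreated B this value was 1.99, just under the stricter rule.

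Ptgs2 and Ptges thus moved together after LPS and apart under Met + LPS. The level of Ptgs2 was 26.0 and 28.2 times that of Ptges in the LPS libraries and 96.2 and 90.7 times in the Met + LPS libraries. In untreated cells, where both genes had few reads (Ptges 25 and 17), the ratio was 0.721 and 1.82. The 95% interval of the Ptges change in Met + LPS vs. LPS, -1.76 to -1.31, did not overlap that of Ptgs2. Against the constitutive synthase Ptges2, whose level was 9.44 and 9.19 TPM in untreated, 4.93 and 4.96 TPM in LPS and 5.65 and 5.87 TPM in Met + LPS libraries, Ptges was at 0.0886 and 0.0657 times in untreated cells, 4.26 and 3.87 times after LPS and 1.13 and 1.06 times under Met + LPS.

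**Figure D3:**
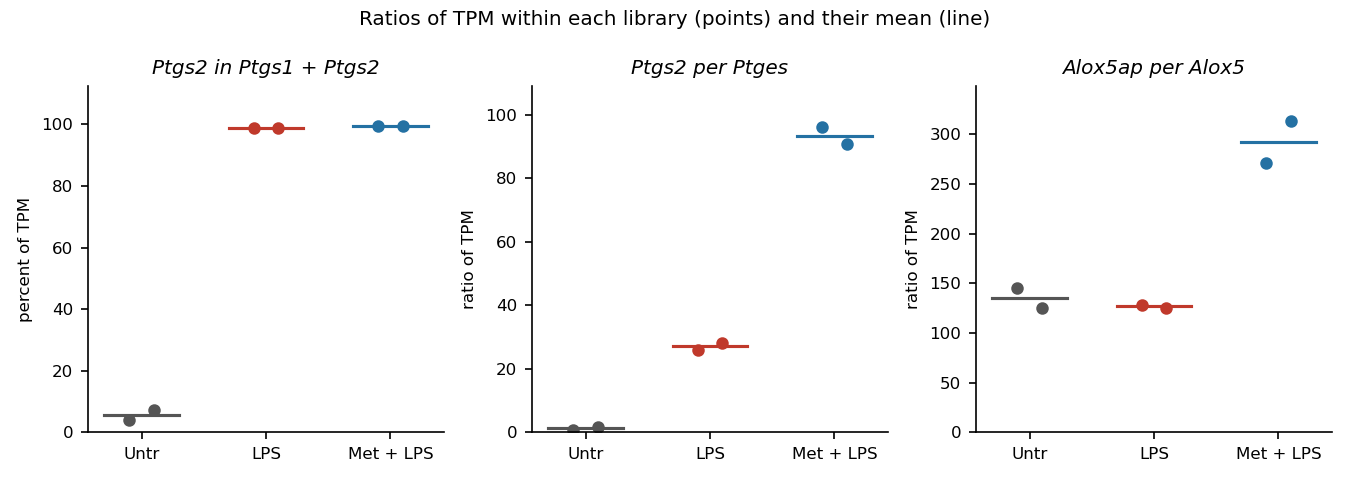
Ratios of TPM within each library (points) and their group means (lines) for Ptgs2 as a percent of Ptgs1 + Ptgs2, Ptgs2 per Ptges and Alox5ap per Alox5, all on axes from 0. The share of Ptgs2 is 98.7% or more in every stimulated library, and the other ratios are highest in the Met + LPS libraries.

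The promoters of Ptgs2 and Ptges are shown because these genes rose the most of the 10 after LPS and then differed under Met + LPS. The sequences are those of RefSeq (GRCm38.p6) on the strand of each gene, 5′ to 3′, with the 250 bases before the start of transcription and, for Ptgs2, the first 30 bases of the transcript. The start that RefSeq gives for Ptges lies inside the span listed for the gene in the expression data. Capitals mark matches to the motifs named after the sequences.
Ptgs2 before the start, chr1:150099781-150100030: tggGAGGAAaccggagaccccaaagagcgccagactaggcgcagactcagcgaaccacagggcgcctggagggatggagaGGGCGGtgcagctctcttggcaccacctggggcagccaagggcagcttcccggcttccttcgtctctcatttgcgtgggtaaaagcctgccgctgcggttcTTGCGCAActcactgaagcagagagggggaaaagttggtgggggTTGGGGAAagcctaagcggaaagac
Ptgs2 after the start, chr1:150100031-150100060: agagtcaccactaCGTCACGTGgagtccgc
Ptges before the start, chr2:30903298-30903547: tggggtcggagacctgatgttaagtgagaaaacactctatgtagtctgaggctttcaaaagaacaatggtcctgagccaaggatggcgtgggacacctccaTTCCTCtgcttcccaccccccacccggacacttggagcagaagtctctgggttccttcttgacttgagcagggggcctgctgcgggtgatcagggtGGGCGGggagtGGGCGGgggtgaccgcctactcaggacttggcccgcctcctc
Exact matches on either strand were sought in 300-base windows (250 before and 50 after the start) for 9 motifs, and 9 of the 10 genes, all but Alox5ap, had a RefSeq window. The Ptgs2 window held C/EBP matches (TTNCNCAA) 69 to 62 and 25 to 18 bases before the start, and a CRE half-site (TGACG) at bases 14 to 18 that overlapped an E-box (CACGTG) at bases 17 to 22 of the transcript. C/EBP matches occurred in 13.3% of all 32544 promoters, the CRE half-site in 20.9% and the E-box in 7.17%. The Ptges window held GC boxes (GGGCGG) 53 to 48 and 42 to 37 bases before the start. The Ptgs2 window held a GC box as well, 170 to 165 bases before its start, and both windows held a PU.1 core (GAGGAA). GC boxes were found in 35.9% of promoters and in 5 of the 9 windows, and PU.1 cores in 28.1% and in 6 of the 9. AP-1 (TGANTCA, 7.79% of promoters), Egr (GCGNGGGCG, 5.60%) and kappa-B (8.49%) letters were found in no window of the 9, and the TATA box (TATAAA, 13.6%) only at a second start of Pla2g4a. A match is a description of letters and says nothing of binding.

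Outside the 10 genes, the profiles most like that of Ptgs2 over the 6 libraries were those of Ccl2, Gbp5 and Il12b, with root mean square differences of 0.106, 0.134 and 0.213 in centred log2(TPM + 1). Ccl2 is a monocyte chemokine and Il12b a subunit of interleukins 12 and 23. The profiles nearest to Ptges were those of Oaf (0.0908), Cacnb3 (0.0998) and Sele (0.123), and those nearest to Alox5 were Arf2 (0.0543), Clybl (0.0655) and Lpcat3 (0.0696). All were picked from 12755 genes by this measure, which compares values over only 6 libraries. The added 1 TPM also shrinks the changes of weakly expressed genes such as Alox5. Its Met + LPS mean was 0.370 times its LPS mean, while that of the nearby Lpcat3 was 0.579 times. Lpcat3, an acyltransferase that places arachidonic acid in phospholipids, is also a gene of the wider pathway.

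Of the receptors, EP2 (Ptger2, ENSMUSG00000037759, chr14:44988195-45003820, plus strand) and EP4 (Ptger4, ENSMUSG00000039942, chr15:5206661-5244187, minus strand) bind prostaglandin E2 and raise cyclic AMP. Ptger2 had 2.68 and 2.42 TPM in untreated libraries, 8.22 and 8.44 TPM after LPS, and 7.01 and 7.75 TPM under Met + LPS. Untreated cells were below both stimulated groups, and Met + LPS was slightly below LPS without overlap. Ptger2 rose by 1.39 after LPS (SE 0.08, adjusted p = 8.5e-06), a ratio of 3.27, and Met + LPS differed from LPS by -0.16 (95% interval -0.36 to 0.04, adjusted p = 0.17). It remained above untreated, at 1.24 (adjusted p = 1.4e-05).

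Ptger4 was the more abundant of the pair, at 21.3 and 20.0 TPM in untreated, 52.6 and 56.1 TPM in LPS and 35.9 and 33.0 TPM in Met + LPS libraries. The 3 groups were apart, with Met + LPS between untreated and LPS, the same order as for Ptges. Ptger4 rose by 1.35 after LPS (SE 0.06, adjusted p = 2.7e-06), a ratio of 2.63, and fell by 0.64 from LPS to Met + LPS (SE 0.06, adjusted p = 0.00032), to 0.633 times the LPS mean. The call in Met + LPS vs. LPS held with each library left out (adjusted p = 0.00196 to 0.0038), and without Met + LPS A the change of -0.70 also passed the stricter rule. Ptger4 under Met + LPS was still 0.71 above untreated (adjusted p = 4.7e-05). The level of Ptger4 was 7.94 and 8.25 times that of Ptger2 in untreated cells, 6.40 and 6.64 times after LPS and 5.12 and 4.25 times under Met + LPS. A stretch of 1.23% of the Ptger4 exon bases also belongs to Ttc33 on the opposite strand, a gene at 45.7 and 45.1 TPM in untreated and 19.7 to 23.1 TPM in stimulated libraries. A larger stretch, 15.27%, belongs to the opposite-strand pseudogene Gm15937, which was at or below 0.1065 TPM in every library.

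The prostacyclin receptor (Ptgir, ENSMUSG00000043017, chr7:16906490-16910905, plus strand), also coupled to cyclic AMP, stood at 9.03 and 9.63 TPM in untreated, 16.5 and 15.3 TPM in LPS and 17.9 and 18.3 TPM in Met + LPS libraries. It was lowest in untreated cells and highest under Met + LPS, without overlap. Ptgir rose by 0.71 after LPS (SE 0.06, adjusted p = 4.9e-05), a ratio of 1.70. Met + LPS differed from LPS by 0.18 (95% interval 0.03 to 0.33, adjusted p = 0.053), which did not pass the test, and from untreated by 0.89 (adjusted p = 1.6e-05). So of the 3 receptors, which all rose after LPS, Ptger4 was lower under Met + LPS than under LPS, while the intervals for Ptger2 and Ptgir included changes close to 0.

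In the leukotriene branch, 5-lipoxygenase (Alox5, ENSMUSG00000025701, chr6:116410077-116461178, minus strand) had the lowest mean level of the 10 genes in both stimulated groups. It was at 2.34 and 2.86 TPM in untreated, 2.11 and 2.00 TPM in LPS and 0.805 and 0.715 TPM in Met + LPS libraries. Untreated and LPS libraries lay close together without overlap, and both Met + LPS libraries were well below them. These values rested on few reads, 60 to 84 per library without metformin and 25 and 26 with it (exact 95% Poisson intervals 16.2 to 36.9 and 17.0 to 38.1). LPS changed Alox5 by -0.23 (95% interval -0.53 to 0.07, adjusted p = 0.12), a value that turned to 0.14 (adjusted p = 0.365) after median-ratio rescaling. Alox5 fell by 0.80 from LPS to Met + LPS (SE 0.12, adjusted p = 0.0025), to 0.370 times the LPS mean. Without any 1 of the LPS or Met + LPS libraries the adjusted p-value was 0.0124 to 0.0165, above the threshold of 0.01, while the change stayed between -0.83 and -0.76. A test on the recovered reads (limma voom) gave -1.43 for Met + LPS vs. LPS. Relative to untreated cells, Met + LPS was lower by a log2 fold change of -1.03 (adjusted p = 0.00024).

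FLAP (Alox5ap, ENSMUSG00000060063, chr5:149264767-149288153, plus strand), which presents arachidonic acid to 5-lipoxygenase, was the most abundant of the 10 genes in untreated cells, at 341 and 359 TPM. It had 271 and 251 TPM after LPS and 218 and 224 TPM under Met + LPS, and the 3 groups did not overlap. Alox5ap fell by 0.42 after LPS (SE 0.05, adjusted p = 0.00016), less than the median fall of all genes, and this direction flipped to 0.11 (adjusted p = 0.064) after median-ratio rescaling. Met + LPS was lower than LPS by a log2 fold change of -0.24 (SE 0.05, adjusted p = 0.0066), a ratio of 0.848, and this call was kept only without LPS B when single libraries were left out (highest adjusted p = 0.0421). Against untreated cells the change under Met + LPS was -0.66 (adjusted p = 1.8e-05), or -0.11 after rescaling, which did not pass the test (adjusted p = 0.0666). The level of Alox5ap was 146 and 126 times that of Alox5 in untreated, 128 and 125 times in LPS and 271 and 313 times in Met + LPS libraries. Of the Alox5ap exon bases, 13.31% also belong to the antisense gene Gm19719, which was at or below 0.2798 TPM in every library.

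Leukotriene C4 synthase (Ltc4s, ENSMUSG00000020377, chr11:50236461-50238616, minus strand) makes the parent of the cysteinyl leukotrienes. It read 6.36 and 6.19 TPM in untreated, 3.50 and 3.38 TPM in LPS and 4.70 and 4.57 TPM in Met + LPS libraries. Here LPS was lowest and Met + LPS lay between LPS and untreated without overlap, whereas Alox5 was lowest under Met + LPS. Ltc4s fell by 0.71 after LPS (SE 0.07, adjusted p = 0.00012), and by 0.27 after median-ratio rescaling, which did not pass the test (adjusted p = 0.0162). Met + LPS exceeded LPS by 0.34 (SE 0.07, adjusted p = 0.0096), and this call was lost without any 1 of the 6 libraries (adjusted p = 0.0269 to 0.0422). Met + LPS was below untreated by -0.37 (adjusted p = 0.0031), which turned to 0.10 after rescaling and was lost without any 1 of the untreated or Met + LPS libraries (adjusted p up to 0.0242). The gene is short and had 25 to 49 reads per library. The LPS libraries had 27 and 25 reads, with exact Poisson intervals of 17.8 to 39.3 and 16.2 to 36.9. The Met + LPS libraries had 36 and 41 reads, and their intervals, 25.2 to 49.8 and 29.4 to 55.6, overlapped those of LPS. The main fit does not use read counts, and limma voom, which does, gave 0.42 for Met + LPS vs. LPS (adjusted p = 0.18). Of the Ltc4s exon bases, 26.4% also belong to the antisense gene Gm26542, which was below 1 TPM in every library. Whether the counting used the strand is not given in the sources used here.

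In the main fit of Met + LPS vs. LPS, the leukotriene genes Alox5 and Alox5ap were called lower and Ltc4s higher. The Ltc4s call rested on few reads and was lost with voom (adjusted p = 0.18), so an opposite movement of Ltc4s is not established. Among the prostaglandin genes, Ptgs1, Ptges and Ptger4 were called lower and Pla2g4a higher, and Ptgs2, Ptger2 and Ptgir did not pass the test. Of these calls, those of Ptges and Ptger4 held with each library left out.

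The wider pathway was taken from 6 lists of 51 genes in all, of which 50 had a single row and 26 reached the minimum level. After LPS, 4 of the 26 rose and 20 fell, beside 16.2% and 60.1% of all tested genes, with a median change of -0.52 beside -0.48 for all genes. After median-ratio rescaling 8 rose and 9 fell, beside 31.6% and 27.2%. In Met + LPS vs. LPS, 5 rose, 9 fell and 12 did not pass the test, with a median of -0.14. Of all tested genes 14.5% rose and 18.0% fell. After rescaling 6 rose and 9 fell, beside 16.2% and 17.8%. The 6 of them that also passed the stricter rule in this comparison, as 8.28% of all tested genes did, were Dagla, Mgll, Pla2g15, Lpcat3, Abcc4 and Hpgd.

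Among phospholipases and enzymes that recycle arachidonic acid, 4 of 10 rose and 2 fell in Met + LPS vs. LPS, beside 14.5% and 18.0% of all tested genes. Dagla, a diacylglycerol lipase, had 14.1 and 15.0 TPM in untreated, 2.10 and 2.43 TPM in LPS and 5.89 and 4.97 TPM in Met + LPS libraries. Its log2 fold change was -2.25 after LPS (adjusted p = 2.28e-06) and 0.98 in Met + LPS vs. LPS (adjusted p = 0.00041). Mgll, the monoacylglycerol lipase that can supply arachidonic acid from 2-arachidonoylglycerol, averaged 5.16 TPM after LPS and 10.1 TPM under Met + LPS (0.84, adjusted p = 0.00043). Pla2g15, the lysosomal phospholipase A2, went from a mean of 77.7 TPM in LPS to 132 TPM in Met + LPS (0.76, adjusted p = 8.9e-05), below the 234 TPM of untreated cells. Acsl4, which activates arachidonic acid for storage in phospholipids, rose from 82.9 to 105 TPM (0.33, adjusted p = 0.0012). Lpcat3 fell from 56.0 to 32.4 TPM (-0.77, adjusted p = 3e-05), and its change after LPS was -0.26 (adjusted p = 0.000733), which turned to 0.27 after rescaling (adjusted p = 0.000895). After LPS, 1 of these 10 genes rose and 9 fell, beside 16.2% and 60.1% of all tested genes. After rescaling 2 rose and 4 fell, beside 31.6% and 27.2%.

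Of 6 tested prostanoid synthases, 1 rose and 2 fell in Met + LPS vs. LPS, beside 14.5% and 18.0% of all tested genes. The cytosolic prostaglandin E synthase Ptges3 rose from a mean of 117 to 148 TPM (0.33, adjusted p = 0.0012), and hematopoietic prostaglandin D synthase (Hpgds) fell from 125 to 102 TPM (-0.30, adjusted p = 0.0027). Ptges3 was thus more abundant than Ptges in every library, with Ptges at 0.179 and 0.165 times its level after LPS and at 0.0432 and 0.0419 times under Met + LPS. Among 4 tested genes of prostanoid transport and breakdown, 3 fell and 0 rose, beside the same 18.0% and 14.5%. Hpgd, the dehydrogenase that inactivates prostaglandins, had 64.3 and 69.1 TPM in untreated, 35.9 and 37.0 TPM in LPS and 14.2 and 14.0 TPM in Met + LPS libraries, a fall by 1.31 on the log2 scale from LPS to Met + LPS (adjusted p = 1.3e-05). Abcc4, a transporter that exports prostaglandin E2, fell from 13.4 to 7.53 TPM (-0.75, adjusted p = 0.00031). Both the inducible synthase and these genes of export and inactivation were therefore lower under Met + LPS.

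The other 6 prostanoid receptors did not reach the minimum level for testing. Ptger1 averaged 0.695, 0.173 and 0.276 TPM and Ptger3 0.632, 0.248 and 0.799 TPM in untreated, LPS and Met + LPS cells, and Ptgdr and Ptgfr were listed at 0 throughout. Prostanoid receptor transcripts in these cells were thus mainly those of Ptger4, Ptgir and Ptger2. Among lipoxygenases and leukotriene enzymes 3 genes were tested, and Cotl1, a coactosin-like protein that binds 5-lipoxygenase, fell from 790 to 539 TPM in Met + LPS vs. LPS (-0.55, adjusted p = 9.3e-05). Of 3 tested leukotriene and lipoxin receptors, 1 rose after LPS, beside 16.2% of all tested genes. All 3 did after median-ratio rescaling, beside 31.6%, with Cysltr1 at 0.33 (adjusted p = 0.00617) and Cysltr2 at 0.98 (adjusted p = 0.00406). The 1 that rose under both scalings was the formyl peptide and lipoxin receptor Fpr2, with 0 and 0.323 TPM in untreated, 17.0 and 16.8 TPM in LPS and 9.59 and 12.2 TPM in Met + LPS libraries (3.96 for LPS vs. untreated, adjusted p = 1.5e-06). Its change in Met + LPS vs. LPS, -0.60, did not pass the test (adjusted p = 0.021).

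**Figure D4:**
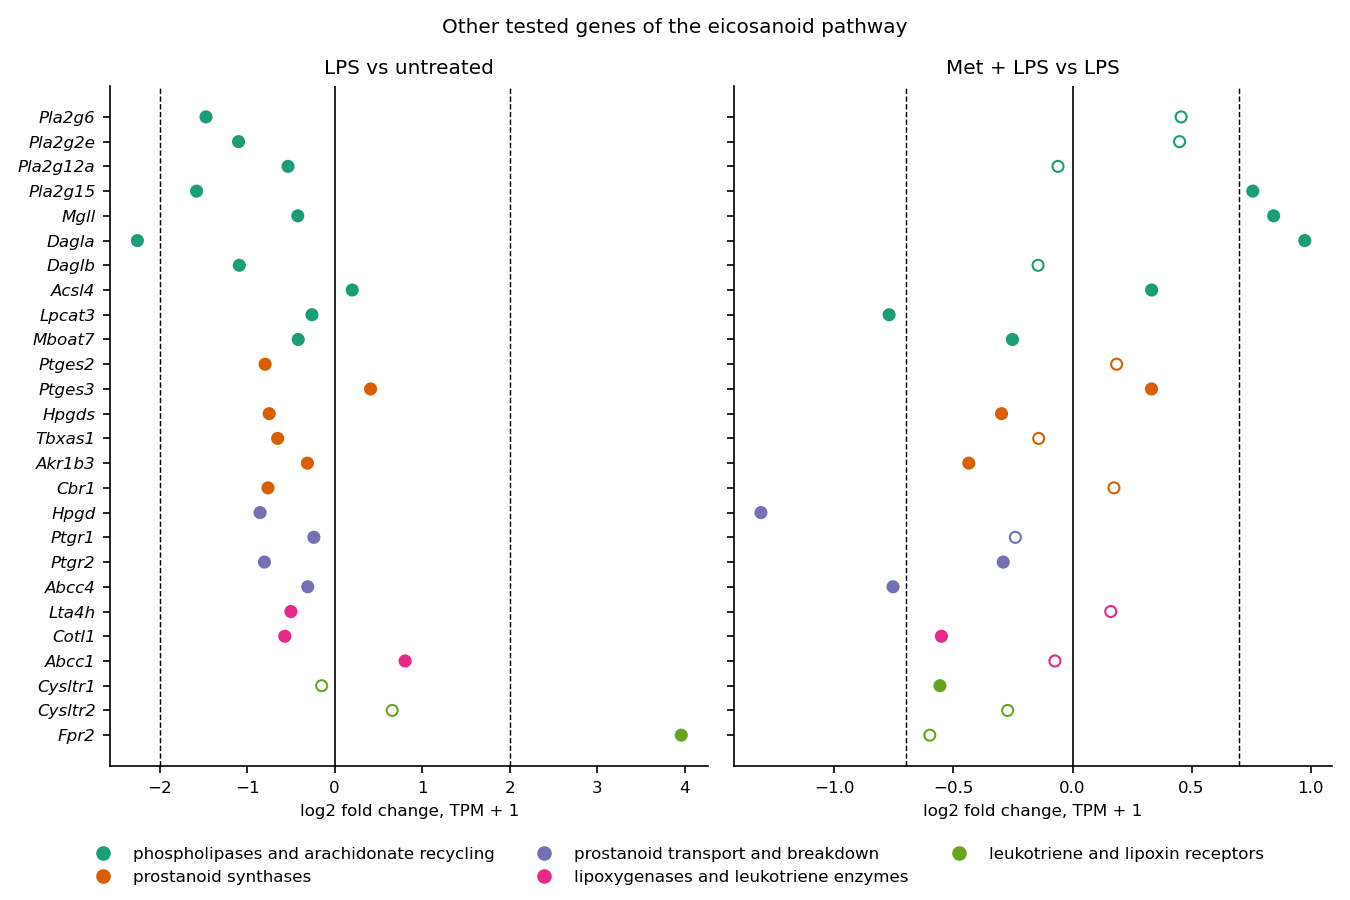
Log2 fold changes (TPM + 1) of the 26 other tested pathway genes, coloured by list, with filled points for an adjusted p-value under 0.01 (limma) and dashed lines at the minimum change of the stricter rule. In LPS vs. untreated 20 of the 26 fell (60.1% of all tested genes), or 9 after median-ratio rescaling (27.2%). Fpr2 is highest there at 3.96, and Hpgd is lowest at -1.31 in Met + LPS vs. LPS.

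The labelled cell type was checked against markers. All 7 macrophage markers were detected, with summed levels of 43710 to 45600 TPM in untreated, 34526 to 35264 TPM in LPS and 28763 to 28884 TPM in Met + LPS libraries. Most of each sum was Lyz2, at 33981 and 35844, 26974 and 26696, and 21203 and 21381 TPM. Adgre1 did not follow the sum, at 1510 and 1575, 1750 and 1684, and 1365 and 1351 TPM. Fcgr1 stood at 162 and 168, 153 and 177, and 74.9 and 73.8 TPM. The other markers, Csf1r, Cd68, Itgam and Mertk, had lower TPM in LPS than in untreated libraries. These comparisons with untreated cells also depended on the scaling. After median-ratio rescaling, 4 of the 7 macrophage markers rose after LPS and 1 fell (median 0.20), beside 31.6% and 27.2% of all genes tested. In Met + LPS vs. LPS, 0 rose and 5 fell under that rescaling, beside 16.2% and 17.8%. Mast cells, which express Alox5 and Ltc4s, had 0 of 6 markers at the minimum level, with Mcpt4, Cma1, Tpsb2 and Fcer1a at 0 in all libraries and sums of 0.920 to 1.56, 0.133 to 0.181 and 0.262 to 0.298 TPM. For neutrophils, another source of Alox5, 3 of 6 markers were at the minimum level, with sums of 20.4 to 21.5, 9.76 to 15.2 and 21.5 to 22.3 TPM and Ly6g at or below 0.140 TPM. Their part in the Alox5 and Ltc4s values was not tested. Dendritic cell sums were 0.537 to 0.676, 2.20 to 2.40 and 2.12 to 2.80 TPM, platelet sums 1.87 to 2.04, 1.67 to 1.69 and 2.34 to 2.81 TPM, and the sums of lymphocyte and stromal markers were at or below 0.756 TPM. In bulk RNA, fewer cells of a type and less RNA per cell cannot be told apart.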

How the data were processed

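RNA-seq of 6 BMDM libraries was used, 2 in each of 3 groups. The authors enriched poly-A RNA, aligned single-end reads to GRCm38 with STAR 2.6.1d and counted them per gene with featureCounts (Subread 1.6.3, SAMtools 1.9), and they deposited TPM values without pooling replicates. How counts became TPM is not given in the sources used here. TPM values of every library sum to a fixed total, so all changes are relative to that total.

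The 12755 of 54532 genes that reached 1 TPM in 2 or more libraries were tested with limma 3.58.1 (R 4.3.3; lmFit, eBayes with trend) on log2(TPM + 1), all 6 libraries in a common fit without covariates (3 residual degrees of freedom), with Benjamini-Hochberg adjustment. Multiplying TPM by GENCODE M21 exon lengths gave whole reads (within 0.05) for 96.4% to 96.7% of values above 0, or 25457016 to 30762755 reads per library. Those reads served for counting intervals, which cover counting error only, and for limma voom on 12750 genes. The fit was also run on simulated reads, which had no shift of the median between groups, and calls there needed a minimum change. That run does not test the scaling or the calls made here by adjusted p-value alone. Replicates A and B of a group differed beyond sampling noise.

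Members, lists and tests were chosen with earlier results of these data known. Named are all members, the listed pathway genes past the stricter rule in LPS vs. untreated or Met + LPS vs. LPS or with a group mean of at least 100 TPM, and the 3 nearest profiles of Ptgs2, Ptges and Alox5. Ptges2, Ptger1, Ptger3, Ptgdr, Ptgfr, Cysltr1 and Cysltr2 fall outside this rule and were chosen after their values were seen. Dpep2, with 2 entries, was left out. The alternatives were leaving out each library, a replicate block, only the compared groups, median-ratio rescaling, voom, no trend, an adjusted p-value of 0.05, a pseudocount of 0.1, a 5 TPM minimum and no filter. Tables were made in Python 3.11.15 with pandas 2.3.3.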

Additional observations from a re-analysis of the deposited data

How the results depend on the processing

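Over 16 alternatives at most per result, the changes of Ptgs1, Ptgs2, Ptges, Ptger2, Ptger4 and Ptgir after LPS and of Ptges and Ptger4 in Met + LPS vs. LPS kept their direction and passed an adjusted p-value of 0.01 in each. Directions turned where the scaling changed. Median-ratio rescaling and voom with median-ratio library sizes (added after seeing the data) gave 0.14 and 0.21 for Alox5, 0.11 and 0.11 for Alox5ap and 0.45 and 0.50 for Pla2g4a in LPS vs. untreated, and 0.10 and 0.12 for Ltc4s in Met + LPS vs. untreated. Leaving out each library gave -0.0605 to 0.00251 for Pla2g4a after LPS. Of the 7 genes past adjusted p in Met + LPS vs. LPS, no filter kept 2, the compared groups only 3 and leaving out 1 library 2 to 4. Of the 2 past the stricter rule there, no filter and a minimum of 5 TPM, at which Alox5 is not tested, kept 1, and leaving out 1 library 1 to 2. In Met + LPS vs. untreated leaving out 1 library gave 1 to 2 past the stricter rule. Such fits assume that the lone library of a group varies like the others. Voom on the recovered reads put 3 genes past the stricter rule in Met + LPS vs. LPS, with Ptgs1 at -0.71 joining Ptges and Alox5, and the Ltc4s call was lost (adjusted p = 0.18). With the replicate block (letter A or B), 5 of the 10 genes passed adjusted p in Met + LPS vs. LPS. The deviations of A and B correlated at -0.00365 to 0.0284 between groups, which cannot tell whether libraries with the same letter share a source. The block left the other 5 counts of eicosanoid genes at their values. Counts of all genes past the stricter rule rose from 776 (LPS vs. untreated) and 682 (Met + LPS vs. untreated) to 1512 and 1457 with a pseudocount of 0.1, 1595 and 1562 with voom, and 1381 and 1300 with voom and median-ratio library sizes. Depth limits Alox5, Ltc4s and the untreated levels of Ptgs2 and Ptges, each under 100 reads per library.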
